A study of Mus musculus with 8 samples.

Results

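The genes described here encode the kainate receptor subunits (Grik1, Grik2, Grik3, Grik4 and Grik5), the delta receptor subunit Grid1, and the auxiliary proteins Neto1 and Neto2. They were taken by their symbols, 8 of the 24060 gene rows in each file, and all 8 passed the filter on low values that left 15605 genes for testing. The study asked which transcripts sit on the ribosomes of astrocytes in the mouse cortex. It used 4 young adult mice of both sexes, about 80 days after birth, and the labels name neither the sex of each animal nor the induction of Cre. All 4 carried 1 copy of the Aldh1l1-creERT2 transgene, labelled "hemi", and were heterozygous for Ribotag. The first expresses an inducible Cre recombinase from regulatory sequence of Aldh1l1, an astrocyte gene, and the second is an allele of the ribosomal protein gene Rpl22 that adds a hemagglutinin (HA) tag after Cre recombination. RNA was taken from the cleared cortex lysate (input, 4 libraries) and from tagged ribosomes precipitated out of it (HA IP, 4 libraries), so each animal, numbered 579, 580, 581 or 595, gave both. There is no group without Cre or without the tag, and both groups share the genotype.

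Kainate receptors are tetrameric glutamate-gated cation channels. Grik1, Grik2 and Grik3 encode subunits that can form channels by themselves, whereas the subunits of Grik4 and Grik5 bind agonist with high affinity and need a partner from the first group to reach the surface as a working receptor. Neto1 and Neto2 are single-pass membrane proteins that associate with these channels and slow their kinetics. Grid1 belongs to the delta subfamily, whose members bind cerebellins and through them presynaptic neurexins, and which are known as organisers of synapses more than as channels. In cortex this set is best known from neurons, at both sides of excitatory and inhibitory synapses.

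The libraries held 33834388 to 53625125 fragments, a depth recovered from the deposited values. The HA IP library of animal 595 was the shallowest and its input library the deepest. Aldh1l1 stood at 406 ± 26.2 FPKM (fragments per kilobase of counted gene length, scaled to library size) in HA IP and 21.8 ± 0.926 FPKM in input (SD, n = 4 each). All 15 astrocyte markers listed were higher in HA IP, with HA IP levels of 441% to 1920% of input on the deposited scale. The 12 pan-neuronal markers were all lower, at 3.04% to 28.02% of input, and so were the 8 markers each of microglia, excitatory neurons and inhibitory neurons. Of 8 endothelial and mural markers 7 were lower and Vtn was not called. Of 8 precursor markers Olig1 and Olig2 were higher and 6 lower, and of 8 oligodendrocyte markers Cnp was higher and 7 lower. Rpl22, the tagged gene, had a log2 fold change of 0.69 (SE 0.13) with the scaling given next and -0.14 on the deposited scale (adjusted p = 0.311). Fold changes below compare HA IP with input in limma, on log2(FPKM + 0.1) after scaling by trimmed mean of M-values (TMM), which assumes that most genes do not change. With it, 42.1% of all genes tested were called higher and 41.2% lower (adjusted p under 0.05). On the deposited scale, where log2 ratios are 0.84 lower, these shares were 23.3% and 61.6%.

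Of the 8 genes, 7 were lower in HA IP and 1, Grid1, was higher after TMM scaling, and on the deposited scale all 8 were lower. The calls come from limma with Benjamini-Hochberg adjustment over all 15605 genes. Since 41.2% of all genes were called lower and 42.1% higher, a call by itself does not set a gene of this set apart. The 8 genes differed widely in how far they fell. Their HA IP level was 2.33% of the input level for Neto1, 5.44% for Grik3, 10.8% for Grik1, 11.5% for Neto2, 16.0% for Grik4, 21.4% for Grik2, 38.3% for Grik5 and 71.7% for Grid1 (deposited FPKM, means of 4 libraries). The median log2 fold change was -1.98, beside 0.01 for all genes tested, and on the deposited scale -2.73 beside -0.75. In no gene did the 4 HA IP values overlap the 4 input values, on either scale. How many of all genes tested show the same was not counted, so this does not set the 8 genes apart. On the deposited scale, a lower level means a smaller part of the RNA on tagged ribosomes than of the lysate RNA. These bulk libraries cannot tell fewer tagged cells that express a gene from less RNA per tagged cell.

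**Figure D1:**
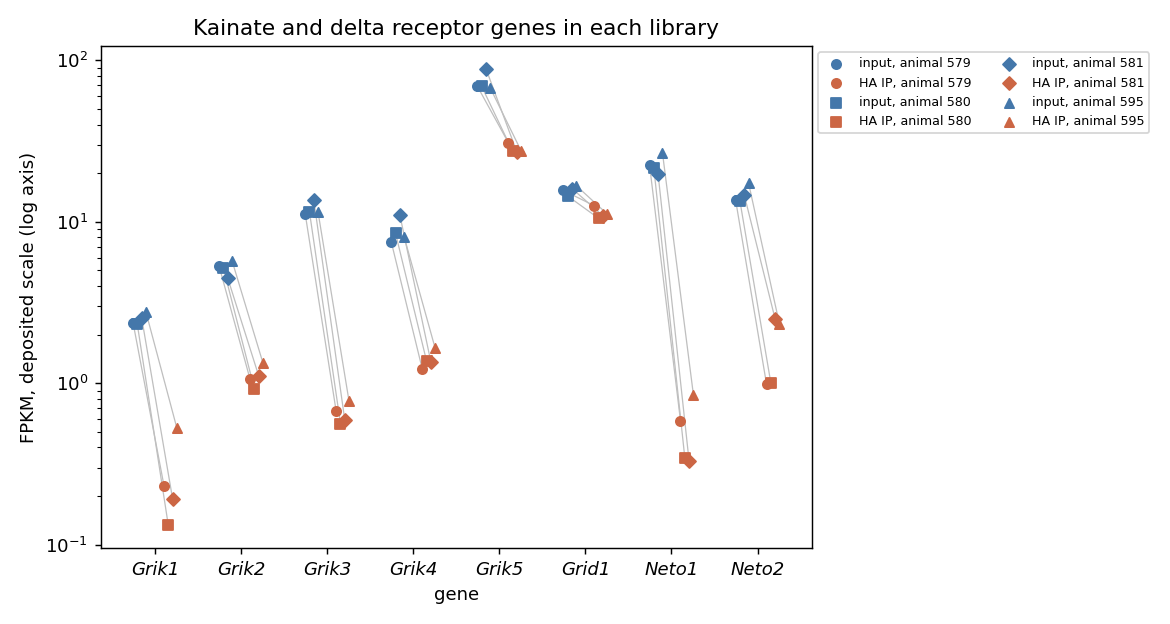
FPKM of each gene on the deposited scale (log axis), with input in blue and HA IP in orange. Each marker shape is 1 animal and grey lines join its libraries. Grik5 is the highest gene in both groups, and Grid1 shows the smallest drop, from a mean of 15.7 to 11.3 FPKM.

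Grik5, which encodes a high-affinity subunit, was the most abundant gene of the set in every library. Its input levels were 69.1, 69.0, 88.6 and 67.4 FPKM in animals 579, 580, 581 and 595, and its HA IP levels were 30.9, 27.3, 26.9 and 27.4 FPKM. Animal 581 had the highest input level and animal 579 the highest HA IP level, and the remaining values of each group lay close together. The log2 fold change was -0.54 (SE 0.10, 95% interval -0.76 to -0.31; adjusted p = 0.000603), or -1.38 on the deposited scale. It is the smallest fall of the 5 kainate receptor genes: the log2 ratio within each animal ran from -0.90 to -0.28 for Grik5 and overlapped that of no other gene of the set. These levels rest on 3536 to 5388 fragments per HA IP library. The Zfp574 gene overlaps Grik5 in RefSeq. Its log2 fold change was 0.54 (SE 0.10; adjusted p = 0.000748), or -0.28 on the deposited scale (adjusted p = 0.0325), and the strand setting of the counting is not given in the sources used here.

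Grik4, the second high-affinity subunit gene, had 7.49, 8.46, 10.98 and 8.04 FPKM in the inputs of animals 579, 580, 581 and 595, and 1.23, 1.37, 1.35 and 1.65 FPKM in their HA IP libraries. As for Grik5, the input of animal 581 was the highest. The log2 fold change was -1.74 (SE 0.14; adjusted p = 8.74e-07). Grik4 fell further than Grik5 in all 4 animals, by 0.95 to 1.39 on the log2 scale, although the subunits belong to the same class.

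Among the subunits that form channels by themselves, Grik3 fell the most. It encodes a subunit of low glutamate sensitivity. Input levels were 11.2, 11.5, 13.6 and 11.4 FPKM in animals 579, 580, 581 and 595, against 0.670, 0.562, 0.590 and 0.770 FPKM in HA IP. The input of animal 581 stood above the other 3, and the HA IP values were all below 1 FPKM. The log2 fold change was -3.22 (SE 0.12, 95% interval -3.49 to -2.96; adjusted p = 3.89e-09), which placed Grik3 at the percentile 3.36 of all genes tested. In every animal it fell further than each of the other 4 kainate receptor genes, and its range of ratios, -3.55 to -2.99, overlapped none of theirs.

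Grik2, whose subunit is the principal one at hippocampal mossy fibre synapses, was at 5.30, 5.16, 4.47 and 5.74 FPKM in the inputs of animals 579, 580, 581 and 595. Its HA IP levels were 1.06, 0.921, 1.11 and 1.33 FPKM. The values within each group were close, and the gene lost less than Grik3 and Grik4 in all 4 animals. The log2 fold change was -1.33 (SE 0.13; adjusted p = 4.48e-06), or -2.13 on the deposited scale.

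Grik1, a subunit gene of cortical interneurons among other cells, was the lowest of the set per counted length. Inputs held 2.37, 2.31, 2.54 and 2.76 FPKM in animals 579, 580, 581 and 595, and HA IP libraries 0.231, 0.132, 0.192 and 0.525 FPKM. The HA IP value of animal 595 was 3.99 times that of animal 580, and the 4 values rest on 42 to 128 fragments. The spread between HA IP libraries was 64.9% of their mean, against a counting error of 11.4%. The log2 fold change was -2.21 (SE 0.28, 95% interval -2.83 to -1.59; adjusted p = 3.46e-05), and it was -1.09 with a pseudocount of 1. In the same HA IP library of animal 595, the summed level of the 8 inhibitory neuron markers was 20.9 FPKM, within the 17.3 to 24.8 FPKM of the other 3, and that of the 12 pan-neuronal markers was 229 FPKM against 201 to 223. Within the inhibitory list, Vip was highest there, at 4.47 FPKM against 1.22 to 2.60. So were Dlx1 (0.873 against 0.377 to 0.723 FPKM) and Lhx6 (0.124 against 0.071 to 0.110 FPKM). Sst was lowest there, and Gad1, Gad2, Slc32a1 and Pvalb lay within the range of the others. The 4 AMPA receptor genes summed to 22.1 FPKM there against 12.2 to 14.6. The summed level of the 8 endothelial and mural markers was highest there, at 41.9 FPKM against 11.8 to 31.3, mostly through the pericyte gene Vtn at 38.8 FPKM. The part of these in the Grik1 value was not tested.

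**Figure D2:**
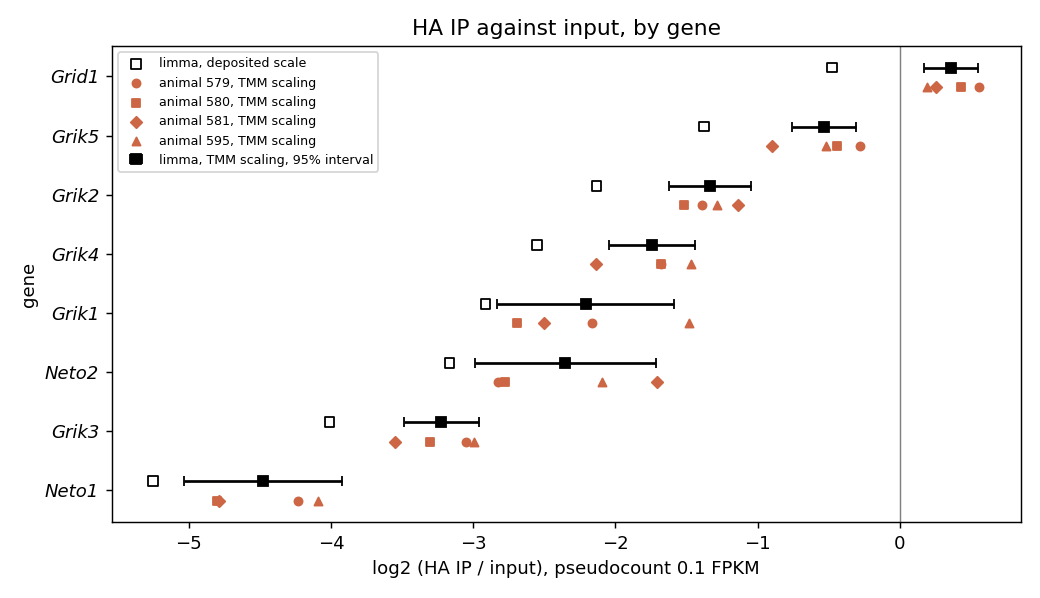
Log2 ratio of HA IP to input for each gene, ordered by fold change. Filled black squares are limma estimates after TMM scaling with 95% intervals, open squares are estimates on the deposited scale, and orange markers are the 4 animals. Grid1 lies above 0 with TMM scaling (0.36) and below it on the deposited scale (-0.48), while the other 7 genes are below 0 on both.

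Grid1 was the member retained most. Its input levels were 15.6, 14.4, 16.0 and 16.7 FPKM in animals 579, 580, 581 and 595, and its HA IP levels 12.6, 10.5, 10.9 and 11.1 FPKM. On this deposited scale every HA IP value was below every input value, with a log2 fold change of -0.48 (adjusted p = 0.000252). After TMM scaling the order turned: HA IP values were 17.1, 14.5, 14.3 and 14.5 and inputs 11.6, 10.7, 11.9 and 12.7 scaled FPKM in the same order of animals. Each HA IP value was then above each input value, and the log2 fold change was 0.36 (SE 0.08, 95% interval 0.17 to 0.55; adjusted p = 0.00262). The direction of Grid1 thus depends on the scaling, and its distance from the kainate receptor genes does not: within each animal its log2 ratio exceeded that of Grik5 by 0.71 to 1.15. By fold change it stood at the percentile 58.8 of all genes tested. The tested genes most like Grid1 over the 8 libraries, among 11385 with a mean of at least 5 CPM, were Plcg1, Prkar2a and Nub1, with root mean square differences of 0.04, 0.04 and 0.05 on the log2 scale.

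The auxiliary genes Neto1 and Neto2 fell by different amounts. Neto1, whose product also binds NMDA receptors, was at 22.6, 21.5, 19.6 and 26.8 FPKM in the inputs of animals 579, 580, 581 and 595, and at 0.585, 0.346, 0.329 and 0.848 FPKM in HA IP. Per counted length, Neto1 went from the second highest level of the set to the second lowest. By fragments, without division by length, Grik3 was above Neto1 in the input of every animal. Neto1 was then below Grik1 in the HA IP libraries of animals 581 (52 against 62) and 595 (101 against 128). The log2 fold change of Neto1, -4.48 (SE 0.25, 95% interval -5.03 to -3.92; adjusted p = 6.3e-08), lay at the percentile 0.314 of all genes tested. HA IP values rest on 52 to 101 fragments, and their spread was 46.3% of the mean against a counting error of 11.5%. Animals 579 and 595 gave the higher HA IP values. Shank2 and Sphkap were among the 3 genes whose pattern was most like that of Neto1, with root mean square differences of 0.17 and 0.18 on the log2 scale.

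Neto2, which raises the currents of kainate receptors, was at 13.6, 13.5, 14.7 and 17.4 FPKM in the inputs of animals 579, 580, 581 and 595. Its HA IP levels were 0.983, 1.0, 2.49 and 2.32 FPKM, with animals 581 and 595 well above 579 and 580. These values rest on 250 to 631 fragments, and their spread of 48.2% of the mean compares with a counting error of 5.04%. The log2 fold change was -2.35 (SE 0.28, 95% interval -2.99 to -1.72; adjusted p = 2.47e-05). Neto1 fell further than Neto2 in all 4 animals, by 1.40 to 3.08 on the log2 scale. The HA IP library of animal 581 also had the highest summed level of the 8 oligodendrocyte precursor markers, 240 FPKM against 131 to 159 in the others, led by Olig1 at 161 FPKM and Olig2 at 68.6 FPKM, and C1ql1 was at 4.17 FPKM there against 1.11 to 1.55. The other 5 were not highest there: Pdgfra was at 0.228 FPKM against 0.184 to 0.533, Cspg4 and Gpr17 were at their lowest, 0.617 and 0.330 FPKM, and Sox10 and Cacng4 lay within the range of the others. In the HA IP library of animal 595, where Neto2 was also high, the precursor sum was 134 FPKM and Olig1 was at its lowest, 103 FPKM. Pdgfra, Sox10, Cspg4 and Cacng4 were at their highest there, at 0.533, 0.884, 0.765 and 4.61 FPKM. Olig2, Gpr17 and C1ql1 lay within the range of the other HA IP libraries. The part of these markers in the Neto2 values was not tested.

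Ordered by log2 fold change from the largest fall, the genes were Neto1, Grik3, Neto2, Grik1, Grik4, Grik2, Grik5 and Grid1. The ranges over the 4 animals overlapped for Neto2 and Grik1, for Grik1 and Grik4 and for Grik4 and Grik2, and for no other neighbours in this order. Within animals, Grik4 fell further than Grik2 in all 4, by 0.16 to 1.0 on the log2 scale, and Grik1 further than Grik4 in all 4, by 0.02 to 1.01. Neto2 fell further than Grik1 in 3 of 4. These differences were not tested. With a pseudocount of 1 in place of 0.1, Grik1 (-1.09) fell less than Grik4 (-1.38).

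The mixture of subunit transcripts differed between the groups. Shares are of summed FPKM, per counted gene length. Lengths counted were 7200, 9622, 8826, 3467 and 3818 bases for Grik1 to Grik5, and for some genes such lengths may add up several transcripts, so the shares of different subunits are approximate. The length of a gene is the same in both groups. Grik5 made up 72.4%, 71.6%, 73.7% and 70.7% of the summed kainate receptor FPKM in the inputs of animals 579, 580, 581 and 595. In HA IP it made up 90.7%, 90.1%, 89.2% and 86.5%. All 4 HA IP shares were above all 4 inputs. Over the same step the share of Grik3 went from 11.7 ± 0.296% to 2.05 ± 0.259%, that of Grik4 from 8.55 ± 0.547% to 4.45 ± 0.658% and that of Grik1 from 2.47 ± 0.321% to 0.852 ± 0.549% (SD, n = 4 each), without overlap between groups. The share of Grik2 was 5.16 ± 1.0% in input and 3.50 ± 0.547% in HA IP, and the groups overlapped. Together the high-affinity genes Grik4 and Grik5 held 79.1% to 82.8% in input and 91.7% to 94.7% in HA IP. The summed level of the 5 genes was 102 ± 12.2 FPKM in input and 31.6 ± 1.81 FPKM in HA IP.

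Between the auxiliary genes, Neto1 made up 62.3%, 61.5%, 57.2% and 60.6% of the summed Neto FPKM in the inputs of animals 579, 580, 581 and 595. It made up 37.3%, 25.7%, 11.7% and 26.8% in HA IP, so Neto2 was the major Neto transcript in each HA IP library and the minor one in each input per length, while without division by length Neto1 already held only 48.8% in input. These shares are described without a test.

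**Figure D3:**
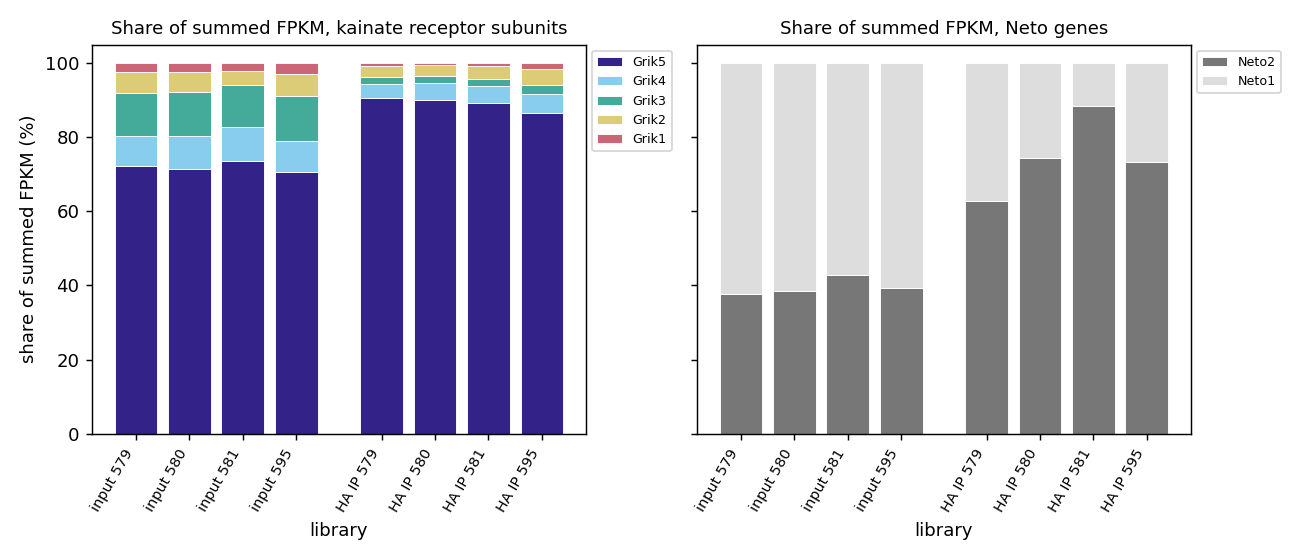
Share of each subunit in the summed FPKM of Grik1 to Grik5 (left) and of Neto1 and Neto2 (right), 1 bar per library, in percent. Grik5 takes 70.7% to 73.7% of the kainate receptor bar in input and 86.5% to 90.7% in HA IP, and Neto2 goes from 37.7% to 42.8% in input to 62.7% to 88.3% in HA IP.

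Levels per counted length were ordered differently in the groups. In input the order was Grik5, Neto1, Grid1, Neto2, Grik3, Grik4, Grik2 and Grik1, and the ranges of Grid1 and Neto2 and of Neto2 and Grik3 overlapped. In HA IP it was Grik5, Grid1, Neto2, Grik4, Grik2, Grik3, Neto1 and Grik1. There Grik5 and Grid1 stood apart at means of 28.1 and 11.3 FPKM. The other 6 lay between 0.270 and 1.70 FPKM, and of their neighbours only Grik2 and Grik3 did not overlap.

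Set beside pan-neuronal transcripts, Grid1 and Grik5 kept more of their input level than any of the 12 markers did, and the other 6 genes did not. Outside the astrocyte list, Olig1 (362%), Olig2 (320%), Cnp (262%) and Vtn (77.6%, with 29.9% to 156% in the animals) kept more than Grid1. Every other marker listed outside astrocytes kept less than Grik5, the nearest being C1ql1 at 36.4%. By fold change Grik5 stood at the percentile 36.8 of all genes tested. The highest pan-neuronal value was that of the dendritic microtubule gene Map2, at 28.02% of input with 23.7% to 32.5% in the 4 animals. Grik5 ran from 30.4% to 44.7% and so overlapped the range of Map2, whereas Grid1 ran from 66.7% to 80.4%. Grik2, Grik4, Neto2, Grik1 and Grik3 lay inside the span of the pan-neuronal list, whose median was 6.87%. Neto1, at 2.33%, was below the lowest of that list, the vesicle gene Syt1 at 3.04%, and below the synaptic SNARE gene Snap25 at 3.12%. No gene of the set came near the lowest astrocyte marker, the water channel gene Aqp4 at 441%. How much of each HA IP level came from RNA of cells without the tag was not tested.

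**Figure D4:**
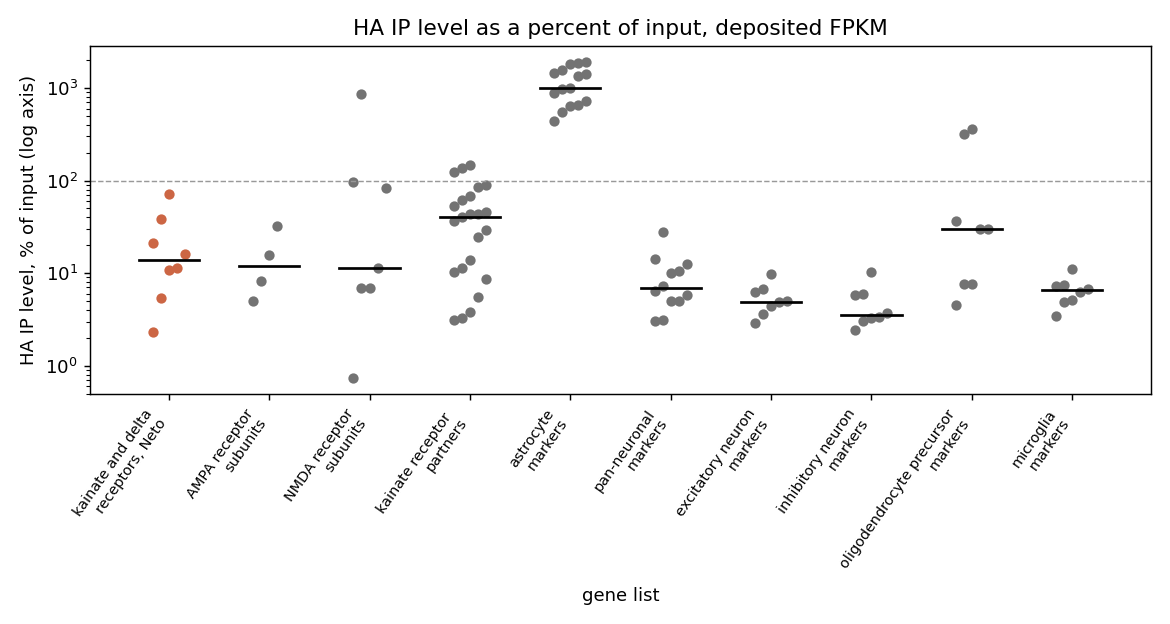
Mean HA IP level as a percent of the mean input level on the deposited FPKM scale (log axis), 1 point per gene, with black bars at list medians and a dashed line at equal levels. The kainate and delta receptor genes with Neto1 and Neto2 (orange) run from 2.33% to 71.7%, with Grik5 and Grid1 above the highest pan-neuronal marker and the other 6 not, and the astrocyte markers run from 441% to 1920%.

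All 4 AMPA receptor genes, whose channels carry fast excitatory transmission, were lower in HA IP: Gria4 by -3.35 (SE 0.20), Gria3 by -2.80 (SE 0.25), Gria2 by -1.88 (SE 0.23) and Gria1 by -0.80 (SE 0.13). Gria1 kept 32.2% of its input level, beside 38.3% for Grik5. Their median log2 fold change was -2.34, beside -1.98 for the kainate and delta set, and the difference was not tested. Of the 7 NMDA receptor genes, 4 were lower and 3 higher, with a median of -2.27. Grin2a, Grin1, Grin2d and Grin2b changed by -5.12, -2.98, -2.83 and -2.27. Grin2c rose by 3.92 (SE 0.11), to 853% of input, whereas the highest value in the kainate and delta set was the 71.7% of Grid1. Grin3a and Grin3b had 0.56 and 0.55 with TMM scaling, and -0.26 and -0.03 without a call on the deposited scale. Grin3b was low in both groups, at means of 0.231 FPKM in input and 0.225 in HA IP.

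Of 23 genes known to bind, traffic or modify kainate receptors, 14 were lower in HA IP, 6 higher and 3 not called, with a median log2 fold change of -0.48 beside 0.01 for all genes tested. On the deposited scale 18 were lower and 3 higher. The rises that held on both scales were those of the adhesion gene Cdh2, at 1.39 (SE 0.09), its partner Ctnnb1, the beta-catenin gene, at 1.15 (SE 0.08), and Klhl17, an adaptor that targets Grik2 protein for ubiquitination, at 1.28 (SE 0.08). Cadherin and catenin are known to anchor Grik2 receptors in the membrane. The scaffold gene Cask had 0.64 (SE 0.12) and, on the deposited scale, -0.17 without a call. Among the falls were those of Snap25 at -4.17 (SE 0.12), the postsynaptic scaffold Dlg2 at -3.98 (SE 0.12), and C1ql3, a secreted protein gene that gathers kainate receptors at synapses, at -3.80 (SE 0.17). Pacsin1, which acts in the endocytosis of these receptors, changed by -2.67 (SE 0.09). Grip1 (-0.34, SE 0.19), Senp1 (-0.06, SE 0.11) and Cul3 (0.15, SE 0.07) were not called. The call of C1ql1, a fall of -0.79 (adjusted p = 0.0426), was lost without animal 579, 580 or 595 (adjusted p = 0.146 to 0.168) and without most single libraries. That of Klhl24, at -0.29 (adjusted p = 0.0248), was lost without animal 580, 581 or 595 (adjusted p = 0.0756 to 0.0892).

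Of the list of cerebellins, neurexins and a delta receptor scaffold, 7 genes are reported, and it is not complete. Of these 7, 4 were lower, 1 higher and 2 not called, with a median of -2.95 beside 0.01 for all genes tested, and on the deposited scale all 7 were lower. The cerebellins link delta receptors to neurexins, and Cbln4, Cbln2 and Cbln1 changed by -4.01 (SE 0.25), -3.94 (SE 0.14) and -2.96 (SE 0.25). Cbln4 stood at 10.6 ± 3.22 FPKM in the inputs and at 0.291 ± 0.0837 FPKM after precipitation. Among neurexin genes, Nrxn3 changed by -2.95 (SE 0.14), and Nrxn2 had 0.42 (SE 0.08), which was -0.42 on the deposited scale. Cbln3 (-0.27, SE 0.19) and Grid2ip (-0.07, SE 0.16) were not called with TMM scaling. Both were low, Grid2ip at means of 0.405 FPKM in input and 0.214 in HA IP. Cbln3, at 0.095 and 0.032 FPKM, lay below the pseudocount of 0.1, which pulls its fold change towards no change.

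All 3 genes of the adenosine deaminase family that edits RNA were lower in HA IP, and these enzymes edit the channel pore of Grik1 and Grik2 transcripts among other targets. Adarb1, the main editor of glutamate receptor transcripts, went from 10.5 ± 1.05 to 0.777 ± 0.159 FPKM, a log2 fold change of -2.81 (SE 0.14). Adarb2, which has no known catalytic activity, changed by -2.64 (SE 0.17) and Adar by -1.13 (SE 0.08). Editing itself cannot be read from gene-level values.

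In RefSeq (GRCm38.p6, the assembly of the mm10 build named in the submitters' processing notes), the genes lie on different chromosomes. Grik1 spans chr16:87895901-88290863, Grik2 chr10:49093680-49790161, Grik3 chr4:125490259-125714173, Grik4 chr9:42518182-42945000 and Grik5 chr7:25009849-25075694. Grid1 spans chr14:34820003-35583387, the longest at 763385 bases, Neto1 chr18:86394815-86506721 and Neto2 chr8:85636718-85700952. Zfp574 was the single overlapping gene among those tested.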

How the data were processed

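Poly(A)-selected RNA from 4 mice was sequenced as 4 input and 4 HA IP libraries, prepared from 100 ng of RNA with a stranded paired-end kit, per the labels' protocols. Tools and build were mm10, HTSeq, STAR and bcl2fastq 2.17 per the submitters' processing notes. The annotation and strand setting of the counting are not stated in labels or headers. Neither headers nor labels name the unit. The values were read as FPKM deposited by the authors, because 1 whole counted length per gene and 1 whole total per library turned all 142235 values above 0 into whole fragments within 0.001. Those fragments served for depth and the filter, and the recovery and the fit were tested on simulated data. The simulated fit changed only a small part of the genes, so it cannot speak to the choice of scaling here.

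FPKM were divided by TMM factors (own code, M-values trimmed by 0.3 and A-values by 0.05 at either end). Genes with at least 0.246 CPM (10 fragments in a median library) in at least 4 libraries were compared on log2(FPKM + 0.1) by limma 3.58.1 (R 4.3.3; variance trend on the mean level), two-sided, Benjamini-Hochberg adjusted over 15605 genes at 0.05. The pseudocount shrinks fold changes of low genes. A test for raw counts was not used because the values were FPKM. Libraries of the same number come from the same animal, and their deviations from group means correlated at 0.22 to 0.40 against -0.27 to 0.11 for other pairs. The main fit did not use this pairing, and the animal as a block was an alternative. With 4 animals, its p-values rest on the spread between libraries within each group, with variances moderated over all genes.

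The members and all gene lists were chosen with earlier results of these data known. The 125 listed genes all had a row, 1 under an older name. Further genes of the delta receptor list and 1 gene near Neto1 in pattern are not reported here, and the counts and median of that list leave them out. Named genes were all members, up to 4 called genes in each direction and every uncalled gene of the partner and receptor lists, and the 3 genes nearest in pattern to the members with the highest and lowest fold change. C1ql1 and Klhl24 were named after their values were seen, because their calls were lost without single animals. Alternatives covered scaling, pseudocount, filter, animal block and leaving out animals or libraries. The fragment shares were added after seeing the data.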

Additional observations from a re-analysis of the deposited data

Results flagged for a closer look

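In 3 of the 16 groups of 4 libraries examined, 1 library stood apart from the others by Dixon's criterion, which chance meets in about 1 in 20 groups. For Grik5 in input the gap of animal 581 (88.6 FPKM) to its nearest neighbour was 0.9205 of the group's range, and for Grik3 in input that of animal 581 (13.6 FPKM) was 0.8825. For Grik5 in HA IP the gap of animal 579 (30.9 FPKM) was 0.8924 of the range. Without animal 581 the number of called genes in the set was the same.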

How the results depend on the processing

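Grid1 was the member whose direction changed with the scaling: its log2 fold change was -0.48 on the deposited scale, so that 0 members were higher there, and over all genes 3643 in place of 6566 were higher. The other 7 kept direction and call under all 18 alternatives each, and Grid1 under 17, but their sizes moved with pseudocount and scaling: the log2 fold change ran from -2.91 to -1.09 for Grik1, from -4.01 to -2.41 for Grik3 and from -5.25 to -3.40 for Neto1, the first value on the deposited scale and the second with a pseudocount of 1. Leaving out an animal or a library gave log2 fold changes of 0.29 to 0.41 for Grid1 (highest adjusted p = 0.0245), -0.62 to -0.41 for Grik5 and -2.50 to -2.02 for Grik1. With the animal as a replicate block, 6717 genes were higher and 6594 lower, and no call of a member changed. Counted as fragments without division by length, the shares of Grik1 to Grik5 were 3.73%, 10.4%, 21.8%, 6.23% and 57.9% in input and 1.47%, 8.14%, 4.37%, 3.73% and 82.3% in HA IP. Grik4 and Grik5 together then held 64.1% and 86.0%, and Neto1 48.8% of the Neto fragments in input and 17.8% in HA IP. Shares with transcript lengths from RefSeq were not run, because the table used gives spans only. Depth limits Grik1 and Neto1 in HA IP most, with as few as 42 and 52 fragments in a library.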
